A study of Mus musculus with 4 samples.

Results

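Ihh-positive chondrocytes of the fetal mouse hindlimb were examined in single-cell RNA-seq of limbs collected at E14.5. Barcodes were kept from 3000 UMIs upwards with at most 10% of UMIs from mitochondrial genes, and were called chondrocytes where the summed UMIs of 4 cartilage genes (Acan, Col9a1, Col9a2 and Col9a3) exceeded those of 3 fibrous collagen genes (Col1a1, Col1a2 and Col3a1). The Ihh-positive class was chosen by at least 2 UMIs of Ihh and fewer than 5 UMIs of Col10a1, so the levels of these 9 genes describe the choice and were not tested. It held 124 of the 3640 barcodes that passed, out of 18955 in the files. The class it was compared with, called other chondrocytes here, held 1518 barcodes with fewer than 2 Ihh UMIs and fewer than 5 Col10a1 UMIs, and a further 68 chondrocytes had 5 or more Col10a1 UMIs and are called Col10a1-high.

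Gli1-CreER females were crossed with males that carried Col2a1-rtTA, Tigre TRE-p21 and R26 LSL-tdTomato, so that all embryos carried the Cre driver, the reporter and the silent p21 allele. Doxycycline was given to the pregnant female from E12.5 at 1 mg/ml in the drinking water and in food, and tamoxifen at E13.5 by oral gavage at 120 µg/g. Pan-Cart-p21MOE embryos also carried Col2a1-rtTA, whose cartilage promoter drives rtTA and, with doxycycline, a mosaic expression of the cell cycle inhibitor p21. Control embryos received the same agents but lacked rtTA. Cells were sorted for tdTomato, which marks descendants of cells with Gli1-CreER activity at the time of tamoxifen, and 4 libraries were made from pooled embryos: S1 (tdT+) and S2 (tdT-) from the first collection, S3 (tdT+) and S4 (tdT-) from the second. Each library held embryos of both conditions, distinguished by sex: the first collection pooled male Pan-Cart-p21MOE with female control embryos, and the second female Pan-Cart-p21MOE with male control embryos. Sex and condition therefore cannot be told apart within a library. The labels give the sorted fraction and the collection, and the study's methods give the pairing of sex with condition. By the sample preparation protocol each group was a pool of 2 embryos, except for the Pan-Cart-p21MOE cells of S3 and S4, which came from 1 embryo. The number of embryos per pool is described differently elsewhere and is uncertain. The tests below therefore measure the spread between libraries of pooled cells, and tdT+ and tdT- cells of a collection come from the same embryos.

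Indian hedgehog (Ihh) is secreted by chondrocytes that have left the proliferative pool and begin to enlarge. It signals through Patched and Smoothened to neighbouring cells, and in the growth plate it maintains the expression of PTHrP (Pthlh) near the ends of the element. PTHrP in turn acts on its receptor, Pth1r, and delays the step towards hypertrophy, so that ligand, receptor and target sit in cells at different distances from the joint. Mef2c, Runx2 and Runx3 are transcription factors of the hypertrophic programme, and Col10a1 is the collagen that marks its later stage.

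Libraries S1 to S4 contributed 10, 19, 28 and 67 Ihh-positive barcodes beside 211, 303, 409 and 595 other chondrocytes. S4 alone supplied more members than the other 3 libraries together, and S1 supplied the fewest. The libraries held 20770520, 11945062, 31871634 and 39435830 UMIs. A minimum of 2 UMIs of one gene favours deeply sequenced barcodes, and the members had a median of 55714 UMIs against 18425 in other chondrocytes. Barcodes with UMIs of both Xist and Y-linked genes, which mark droplets with cells of both sexes, were 18 of the 124 members and 96 of the 1518 other chondrocytes (6.32%). No member barcode was shared between libraries. Doublets were not removed by a caller, and counts were repeated without the barcodes of mixed sex, and within a shared depth range, as given beside the results.

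The 124 members carried 854 of the 991 Ihh UMIs in the chondrocytes with fewer than 5 Col10a1 UMIs. The Ihh level in the members of S1 to S4 was 76.9, 134, 129 and 128 counts per 1000000 UMIs (CPM), and it was 3.38, 6.63, 2.13 and 4.53 CPM in other chondrocytes. The low member level was that of S1, and both classes differ by construction. In the Col10a1-high barcodes of S2 and S4, Ihh was at 386 and 215 CPM, so Ihh was not confined to the class examined here. Within the class the count ran from 2 to 52 UMIs with a median of 4, so 59 members (47.6%) had 2 or 3 UMIs and 24 (19.4%) had 10 or more. Col10a1 had no UMI in 85 members (68.5%).

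Ihh lies on the minus strand of chromosome 1 in GRCm38, chr1:74945315-74951672. Its promoter is shown because the class is defined by this gene, beside the promoters of Tspan32 and Tnni1, which were picked from the 12 genes with the largest increases in the class because they hold the letters searched for. Each run is the 250 bases before the RefSeq start on GRCm38.p6, on the strand of the gene: chr1:74951673-74951922 (minus) for Ihh, chr7:143004796-143005045 (plus) for Tspan32 and chr1:135799261-135799510 (plus) for the second of 2 Tnni1 entries. Capitals mark TGTGGT or its reverse complement ACCACA, core letters bound by RUNX factors.
Ihh: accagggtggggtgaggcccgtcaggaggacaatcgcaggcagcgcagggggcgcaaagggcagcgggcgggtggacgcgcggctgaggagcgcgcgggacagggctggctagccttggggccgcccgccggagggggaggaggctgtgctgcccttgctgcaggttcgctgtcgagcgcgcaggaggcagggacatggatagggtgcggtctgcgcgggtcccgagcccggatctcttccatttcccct
Tspan32: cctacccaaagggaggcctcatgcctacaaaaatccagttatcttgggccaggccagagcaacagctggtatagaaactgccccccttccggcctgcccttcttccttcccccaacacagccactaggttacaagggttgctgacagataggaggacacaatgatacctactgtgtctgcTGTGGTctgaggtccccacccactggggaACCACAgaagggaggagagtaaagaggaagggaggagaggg
Tnni1: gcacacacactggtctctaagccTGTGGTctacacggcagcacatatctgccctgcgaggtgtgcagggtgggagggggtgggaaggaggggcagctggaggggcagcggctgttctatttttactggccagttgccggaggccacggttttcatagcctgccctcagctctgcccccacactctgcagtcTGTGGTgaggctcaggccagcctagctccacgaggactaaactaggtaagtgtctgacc
The Ihh window held 0 matches and the Tspan32 window 2, at 70 and 41 bases before the start. The same letters occurred on either strand in 15.9% of the 27025 genes with a promoter in the table. Of the 12 genes with the largest increases 6 had an entry and 2 of these held the letters, and of the 12 with the largest decreases 9 had an entry and 1 held them. A match is a run of letters and not a bound site.

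The other markers of prehypertrophic chondrocytes, Pth1r and Mef2c, were higher in the Ihh-positive class. Pth1r (chr9:110722085-110747145), the PTHrP receptor, stood at 85.3, 205, 236 and 203 CPM in the members of S1 to S4 and at 41.2, 56.0, 43.5 and 46.7 CPM in other chondrocytes, where CPM here and in the class comparisons below is normalised by trimmed mean of M values (TMM) on UMIs summed per library and class. The members of S1 were lowest but the classes did not overlap. Pth1r was 3.84-fold higher, a log2 difference of 1.94 ± 0.18 (SE; adjusted p = 5.99e-05 by edgeR's quasi-likelihood test with library as a block and Benjamini-Hochberg adjustment, n = 4 libraries). Mef2c (chr13:83504034-83667080) stood at 210, 446, 511 and 353 CPM in the members and at 123, 153, 141 and 134 CPM in other chondrocytes. Its groups were again separate with S1 lowest, and the log2 difference was 1.42 ± 0.14 (edgeR adjusted p = 0.000105). After every barcode was thinned to 3000 UMIs, Pth1r had a UMI in 35.5% of members, 14.1% of other chondrocytes and 14.8% of barcodes outside the chondrocytes, and Mef2c in 59.7%, 31.7% and 30.8%. In the Col10a1-high class the thinned shares were 73.5% for Pth1r and 66.2% for Mef2c. Without thinning the shares for Pth1r in members, other chondrocytes and outside the chondrocytes were 94.4%, 53.2% and 55.2%. The shares in other chondrocytes and outside the chondrocytes lay within each other's counting intervals for both genes, and the level of free RNA was not measured.

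Across all genes, 2977 of 14139 tested (21.1%) passed an adjusted p of 0.05 in the edgeR test between Ihh-positive and other chondrocytes, 1606 higher (11.4%) and 1371 lower (9.7%) in the members, and the median log2 difference was -0.04. Between barcodes of 30000 to 100000 UMIs in both classes 1773 genes passed, of which 1605 were among the 2977 and changed in the same direction. Leaving out barcodes of mixed sex or shared sequence from that range gave 1618 genes, 1471 of them shared, which is 49.4% of the first list and 90.9% of the second. Without barcodes of mixed sex but at all depths 2699 genes passed, and 2507 were shared. With each barcode thinned to 3000 UMIs 518 of 7382 genes tested passed, and 473 were shared. Of the 2977 genes 2396 were tested there. The classes stayed as chosen at full depth, so thinning lowered the counts but did not undo the choice by depth. The part of lower counts in the calls lost after thinning, here and below, was not tested. Without S3 1546 genes passed, and without S4, which held most members, 1364. The counts below are read against the 11.4% higher and 9.7% lower of all genes.

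**Figure D1:**
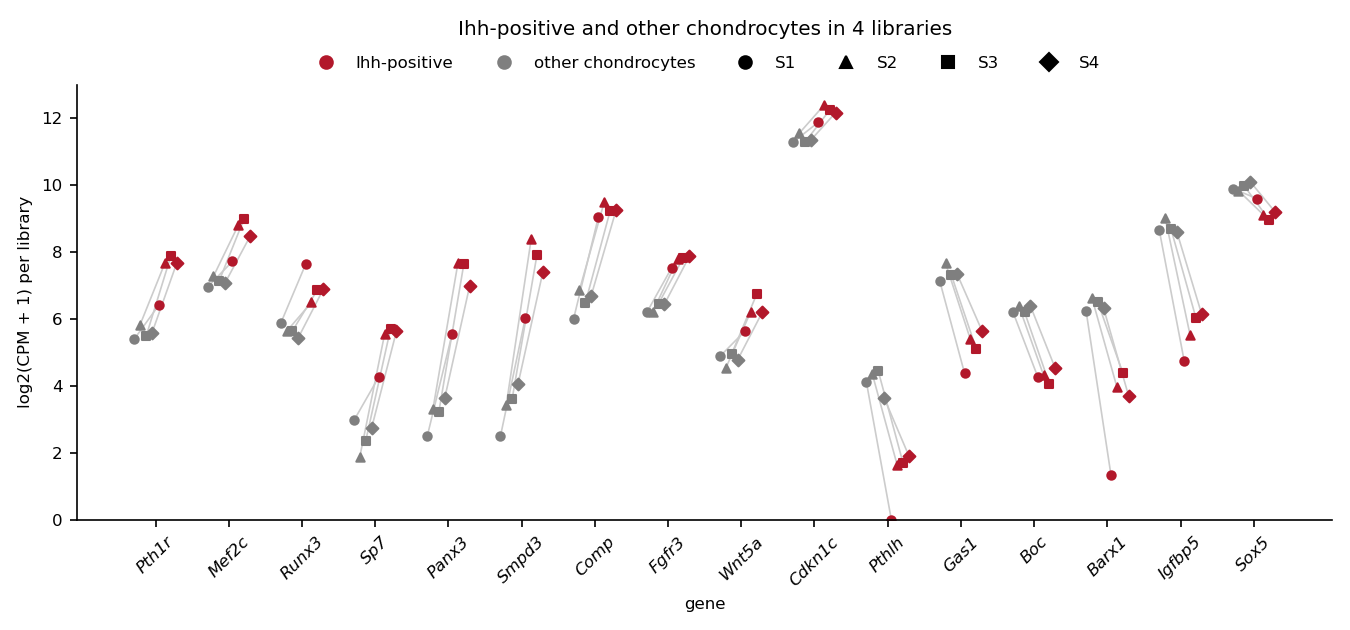
Levels of 16 genes as log2(CPM + 1), on the vertical axis, in Ihh-positive (red) and other chondrocytes (grey), with 1 symbol per library and a line joining the classes of a library. The 10 genes at the left from Pth1r to Cdkn1c were higher and the 6 from Pthlh to Sox5 lower in the Ihh-positive class of all 4 libraries, and S1 (circles) gave the lowest member value for most of the higher genes.

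Components of the hedgehog pathway that passed the test were lower. Of 17 hedgehog genes tested 0 were higher and 9 were lower, with a median log2 difference of -0.61. Gas1, a co-receptor, stood at 19.8, 40.9, 33.4 and 48.8 CPM in the members and at 141, 204, 158 and 161 CPM in other chondrocytes. The classes were well apart in all 4 libraries and the level was 4.42-fold lower (log2 difference -2.14 ± 0.16, edgeR adjusted p = 1.45e-05). Boc, another co-receptor, fell by 2.05 on the log2 scale, from 78.0 ± 5.80 to 18.7 ± 2.60 CPM (SD, n = 4), and Cdon by 1.08. The transcription factors Gli3 and Gli2 fell by 1.12 and 1.06. Smo, the signal transducer, and Hhip, which binds and sequesters the ligand, were also lower at -0.67 and -1.77. Smo did not pass without S4 (edgeR adjusted p = 0.0619), nor Hhip without S3 (0.0505), without S4 (0.0788) or within 30000 to 100000 UMIs (0.0810). After thinning to 3000 UMIs Cdon (-1.01), Gli2 (-0.76) and Smo (-0.65) did not pass.

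Ptch1, the hedgehog receptor and a pathway target, did not follow. It stood at 204, 191, 198 and 212 CPM in the members and at 172, 155, 205 and 171 CPM in other chondrocytes, and the classes overlapped. Its log2 difference was 0.20 ± 0.10 (edgeR adjusted p = 0.177), and it was below 0 at -0.10 within the shared depth range and -0.29 after thinning. Gli1, the other common target, stood at 10.7, 7.35, 9.66 and 12.6 CPM in members and 18.2, 11.5, 18.03 and 14.6 CPM in other chondrocytes, with an edgeR adjusted p of 0.112.

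For the PTHrP loop, ligand and receptor moved in opposite directions. Pthlh was at 0, 2.10, 2.23 and 2.74 CPM in the members against 16.2, 19.5, 20.9 and 11.6 CPM in other chondrocytes. Every library was lower in the members, and the fitted log2 difference was -2.81 ± 0.38 (edgeR adjusted p = 0.000576). Of 12 genes of PTHrP signalling 3 were higher and 3 lower (median log2 difference -0.10). Gnas, the stimulatory G protein subunit behind the receptor, was higher by 0.32 but not without S4 (edgeR adjusted p = 0.0659) or after thinning (0.673). Zfp521, a zinc finger repressor downstream of PTHrP, was lower by 1.21 and Pde4d, a cAMP phosphodiesterase, by 0.93.

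Of 18 transcription factors of hypertrophy and bone formation tested 9 were higher and 3 lower, with a median log2 difference of 0.81. The 3 lower were Sox4 and Sox11, SoxC factors, at -1.20 and -0.58 on the log2 scale, and Cbfb, the partner of the Runx factors, at -0.49. Sp7, which bone-forming cells also require, stood at 18.3, 46.2, 51.3 and 48.5 CPM in the members and between 2.68 and 6.82 CPM in other chondrocytes. S1 lay well below the other members but above every other chondrocyte value, and the level was 8.77-fold higher (log2 difference 3.13 ± 0.33, edgeR adjusted p = 0.000132). The homeobox genes Dlx3, Dlx5 and Dlx6 were higher by 2.11, 1.77 and 2.17 on the log2 scale, and the AP-1 member Fosl2 by 1.29. Dlx6 did not pass without S3 (edgeR adjusted p = 0.0572), without S4 (0.0600) or within the shared depth range (0.0658), and after thinning Dlx3 (1.49, edgeR adjusted p = 0.426) and Dlx5 (0.89, 0.488) did not pass. Runx3 was at 198, 89.2, 116 and 117 CPM in the members and at 57.6, 48.6, 49.1 and 42.4 CPM in other chondrocytes. Here S1 was the highest, the classes did not overlap, and the log2 difference was 1.36 ± 0.14 (edgeR adjusted p = 0.000123). Runx2 was less even, at 114, 159, 286 and 131 CPM against 101, 48.0, 85.9 and 121 CPM. The classes overlapped, and its log2 difference of 0.94 ± 0.26 (edgeR adjusted p = 0.0263) did not pass without S2 (0.110), without S3 (0.190) or within the shared depth range (0.140). Foxa3 was higher by 0.98 but not without S3 (edgeR adjusted p = 0.0537), without S4 (0.0798) or after thinning (0.750). Foxa2 was too low to be tested.

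Most genes in a list of chondrocyte identity factors were lower, but Sox9 did not pass. Of 7 tested 0 were higher and 6 were lower, with a median log2 difference of -0.74. The list shares at least Cytl1 with the resting chondrocyte list below and also holds Barx1, so it is not confined to genes of all chondrocytes. Most cartilage matrix genes were higher, as given below. Sox5, a partner of Sox9 on cartilage genes, was at 772, 555, 499 and 590 CPM in the members and at 956, 916, 1008 and 1105 CPM in other chondrocytes. The classes were separate and the log2 difference was -0.74 ± 0.11 (edgeR adjusted p = 0.000932). Sox6, the other partner, was lower by 0.58 but did not pass without S3 (edgeR adjusted p = 0.0643) or S4 (0.106). Sox9 itself stood at 719, 533, 556 and 493.2 CPM against 676, 679, 698 and 669 CPM, lower in 3 of 4 libraries and higher in S1, and did not pass (edgeR adjusted p = 0.0759). It passed in 5 of 16 alternatives, among them without S1 (-0.38, edgeR adjusted p = 0.00618) and after thinning (-0.60, 0.0109). Barx1, a homeobox gene of resting chondrocytes and of the joint region, was at 1.52, 14.7, 20.1 and 12.1 CPM against 74.5, 98.3, 89.8 and 78.8 CPM. The classes did not overlap and the level was 6.58-fold lower (log2 difference -2.72 ± 0.23).

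Genes of hypertrophy and mineralization were higher in part. Of 14 tested 5 were higher and 0 lower (median log2 difference 0.63). Panx3 (chr9:37659902-37669235), a hemichannel of hypertrophic chondrocytes and osteoblasts, was at 45.7, 203, 198 and 126 CPM in the members and at 4.60, 8.99, 8.37 and 11.4 CPM in other chondrocytes. The member value of every library lay above all library values of other chondrocytes, and the level was 16.1-fold higher (log2 difference 4.0 ± 0.21, edgeR adjusted p = 2.47e-06). Smpd3 (chr8:106252548-106337988), a neutral sphingomyelinase needed for skeletal mineralization, was at 64.0, 332, 241 and 168 CPM against 4.60, 9.75, 11.2 and 15.5 CPM. It had the largest increase of the genes named by the rule, 18.02-fold, with a log2 difference of 4.17 ± 0.23 (edgeR adjusted p = 3.49e-06). Tgm2, a transglutaminase, and Ifitm5, a membrane protein of bone-forming cells, were higher by 1.84 and 2.84. Alpl, Spp1 and Ibsp, which mark mineralization, did not pass. Spp1 was at 6.09, 17.8, 34.2 and 6.31 CPM against 3.01, 18.4, 6.04 and 12.8 CPM, and its log2 difference turned below 0 without S3 (-0.35). After thinning, Panx3 had a UMI in 25.8% of members, 4.08% of other chondrocytes and 2.69% of barcodes outside the chondrocytes, and Smpd3 in 21.8%, 4.68% and 3.68%. In the Col10a1-high class these shares were higher, 63.2% for Panx3 and 79.4% for Smpd3.

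Of 29 cartilage matrix genes tested 21 were higher and 3 lower, with a median log2 difference of 0.62. Comp, a pentameric matrix glycoprotein, was at 533, 729, 603 and 609 CPM in the members and at 63.3, 116, 87.9 and 103 CPM in other chondrocytes. The gap was wide and alike in the 4 libraries, and Comp was 6.78-fold higher (log2 difference 2.76 ± 0.10, edgeR adjusted p = 2.88e-07). Snorc, a cartilage proteoglycan, was higher by 1.92 on the log2 scale (1794 ± 239 against 481 ± 111 CPM, SD, n = 4), and Hapln1, the link protein of aggrecan, by 1.51. Matn3 and Matn1, matrilins of the growth plate, were higher by 1.37 and 1.11. Col2a1, the main cartilage collagen, was higher by 0.84, from 4856 ± 291 to 8826 ± 1589 CPM (SD, n = 4). The exceptions were Bgn, Fmod and Matn4, lower by 1.22, 0.99 and 0.53, of which Fmod did not pass within the shared depth range or without S3 (edgeR adjusted p = 0.0921), and Matn4 did not pass in that range without barcodes of mixed sex.

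Genes of protein folding and secretion were higher too. Of 20 tested 14 were higher and 0 lower, with a median log2 difference of 0.46. Serpinh1, the collagen chaperone, was higher by 0.86 (2572 ± 200 against 1414 ± 29.2 CPM, SD, n = 4), Sdf2l1 by 1.34 and Hspa5, the main chaperone of the endoplasmic reticulum, by 0.60. Of 21 genes of hypoxia and glycolysis 12 were higher and 2 lower. Ldha, which makes lactate, was higher by 0.57 and Pgk1 by 0.67, while Car9 was lower by 1.41 in the fit with all libraries and passed in 6 of 15 alternatives, not without S1, S2 or S3, by DESeq2 or within the shared depth range. After thinning Ldha (0.38) and Pgk1 (0.26) did not pass.

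**Figure D2:**
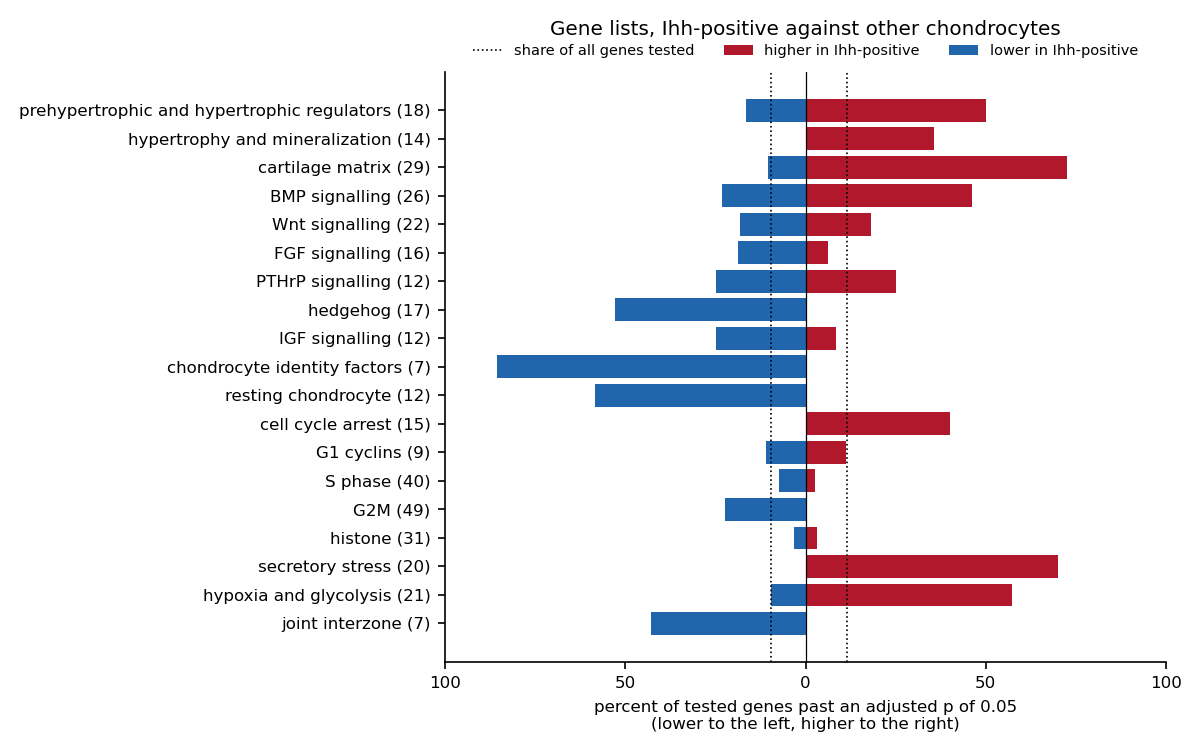
Share of each list's tested genes (number in brackets) that passed an edgeR adjusted p of 0.05, higher in Ihh-positive chondrocytes to the right in red and lower to the left in blue, on a percent axis. Dotted lines mark the shares of all 14139 genes, 9.7% lower and 11.4% higher, and the hedgehog and identity lists are among those with bars to the left only.

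BMP genes changed in both directions. Of 26 BMP genes 12 were higher and 6 lower (median log2 difference 0.49). Bmp7 and Bmp2 were higher by 1.46 and 1.08. Bmp6 stood at 15.2, 247, 98.8 and 84.4 CPM against 36.6, 37.3, 18.3 and 24.7 CPM. S1 ran opposite to the other libraries, and the log2 difference of 1.81 ± 0.39 (edgeR adjusted p = 0.00761) did not pass without S3 (0.0823), without S4 (0.0746) or by DESeq2 (0.139). The intracellular inhibitors Smad6 and Smad7 were higher by 1.22 and 0.68, and the secreted antagonist Nog by 0.86. The receptor Bmpr1b was lower by 0.86, but not without S4 (edgeR adjusted p = 0.0512). Gdf5, the joint ligand, was lower by 2.04 but did not pass within the shared depth range. After thinning Bmp7 (0.96), Bmp2 (0.70), Smad7 (0.33) and Bmpr1b (-0.57) did not pass.

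Of 22 Wnt genes 4 were higher and 4 lower. Wnt5a was at 48.7, 73.5, 106 and 73.2 CPM in the members and at 28.6, 22.2, 30.1 and 26.4 CPM in other chondrocytes. The classes did not overlap and the log2 difference was 1.49 ± 0.16 (edgeR adjusted p = 0.000157). After thinning it was 0.64 and did not pass (edgeR adjusted p = 0.430). Wnt4 was higher by 1.34 and Wnt5b by 1.28, the latter not within the shared depth range or after thinning, while the secreted antagonist Sfrp2 was lower by 1.75. Among 16 FGF genes 1 was higher and 3 lower. Fgfr3, the receptor that restrains chondrocyte proliferation, was 2.72-fold higher (216 ± 21.9 against 79.5 ± 7.98 CPM, SD, n = 4), while Fgfr1 and the FGF target Etv5 were lower by 0.98 and 1.05, where Etv5 did not pass after thinning (-0.52). Of 12 IGF genes 1 was higher and 3 lower, and Igfbp5, an IGF-binding protein, was at 25.9, 45.1, 64.6 and 69.4 CPM against 401, 520, 412 and 388 CPM. That separation was 7.91-fold, a log2 difference of -2.98 ± 0.19 (edgeR adjusted p = 8.42e-06).

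Of 15 cell cycle arrest genes 6 were higher and 0 lower, with a median log2 difference of -0.01 over the list. Cdkn1c, which encodes p57, stood at 3765, 5376, 4883 and 4618 CPM in the members and at 2504, 2995, 2494 and 2608 CPM in other chondrocytes. No member value reached down to the other class, and the log2 difference was 0.81 ± 0.07 (edgeR adjusted p = 5.70e-05). Cdkn1a, which encodes p21, was at 64.0, 99.7, 117 and 76.8 CPM against 27.9, 33.3, 46.0 and 41.6 CPM, a log2 difference of 1.23 ± 0.14. The p21 transgene is active in part of these cells, and its share in the Cdkn1a counts was not tested. WPRE, a sequence that the p21 allele and the tdTomato reporter both carry, was also higher in the members. Its log2 difference ran from 0.27 to 0.93 over 16 alternatives, of which 6 passed. Of 9 G1 genes Cdk6 was higher by 0.99 and Ccnd1 lower by 0.84.

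Genes of G2 and M phase were lower in part. Of 49 tested 0 were higher and 11 lower, with a median log2 difference of -0.20. Within 30000 to 100000 UMIs, 23 of 49 were lower and the median was -0.67, in a range that also changed which barcodes were compared. Over all genes of that fit 985 of 12797 were lower, with a median of -0.08. Mki67 was at 65.5, 29.4, 37.9 and 61.7 CPM against 87.5, 71.5, 71.5 and 76.5 CPM. All 4 libraries were lower in the members, by 0.67 ± 0.16 on the log2 scale (edgeR adjusted p = 0.0133), and it did not pass without S2 (0.0533) or S3 (0.0885), without barcodes of mixed sex (0.0903), at an Ihh minimum of 1 (0.659) or 3 UMIs (0.103), or after thinning (0.119). Over 16 alternatives it ran from -1.74 to -0.18, and 10 passed. Of 40 S phase genes 1 was higher and 3 lower, and of 31 histone genes 1 was higher and 1 lower. Within the shared depth range 6 of 40 S phase and 9 of 31 histone genes were lower.

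Markers of other tissues were followed for mixed droplets and free RNA. Of 12 resting chondrocyte genes 0 were higher and 7 lower, and of 7 joint interzone genes 0 were higher and 3 lower. Of 7 muscle genes 5 were lower and of 7 immune genes 4, and summed over their lists these stood at 12.3 ± 4.30 CPM (muscle) and 9.27 ± 2.39 CPM (immune) in the members, against 70.5 ± 58.8 and 51.4 ± 61.7 CPM in other chondrocytes (SD, n = 4). The immune sum was higher in the members of S1 (6.03 against 4.56 CPM) and S3 (10.26 against 4.55 CPM), and lower in those of S2 and S4. Myod1 and Pax7 were at 0 in the members of all 4 libraries and Ptprc likewise. Of 6 osteoprogenitor genes 5 were higher and 0 lower, among them Sp7, Ifitm5, Runx2 and Dlx5, which the list shares with the regulator and mineralization lists above. Of 7 endothelial genes 1, Pecam1, was higher, at 83.8, 118, 118 and 161 CPM against 70.6, 58.3, 117 and 101 CPM, and it passed in 10 of 16 alternatives, not without S2 or S4, by DESeq2 or after thinning. Kdr, Cdh5 and Emcn reached 21.9, 25.0 and 18.6 CPM in the members of S4 and stayed between 0 and 2.10 CPM in the members of the other libraries. Of 23 genes of dissociation stress 3 were higher and 2 lower. Of 5 tenocyte genes 0 were higher and 2 lower, of 6 perichondrium genes 0 and 1, and of 5 erythroid genes 0 and 0. The part of other cell types in the class difference was not tested beyond these values.

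By the rule for named genes, the 12 genes with the largest increases were Smpd3, Panx3, Fam89a, Sp7, Ifitm5, Comp, Chrdl1, Dhx58os, Vdr, Tspan32, Pltp and Tnni1, with log2 differences from 2.37 to 4.17. Fam89a was at 25.9, 42.0, 45.3 and 44.96 CPM in the members and between 3.65 and 5.71 CPM in other chondrocytes. Vdr, the vitamin D receptor, was at 27.4, 32.5, 32.7 and 40.6 CPM against 4.02 to 8.06 CPM. Chrdl1 binds BMPs outside the cell and was higher by 2.73, but not after thinning (edgeR adjusted p = 0.0745). The largest decreases included those of Caln1, Igfbp5, Ube2u, Creb5, Il1rapl2, Cadps2, Barx1, Spock3, Gm16152, Cadm2 and Adamtsl1, with log2 differences from -3.33 to -2.53, of which Gm16152 did not pass after thinning. Caln1, a neuronal calcium-binding protein, was at 1.52, 2.10, 1.49 and 4.66 CPM against 44.7, 27.5, 31.7 and 29.2 CPM. All of these genes moved in 1 direction in the 4 libraries, which the rule required.

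Ranked by correlation with Ihh over single chondrocytes, the 10 genes most like it were Fam89a, Panx3, Smpd3, Dusp9, Dlx3, Sp7, Prkg2, Snorc, Pcolce2 and Tnni1. The measure was Spearman's rank correlation of counts per 10000 UMIs within a library, averaged over 4 libraries and compared over 10980 genes with a UMI in at least 10% of the chondrocytes. It was 0.42 for Fam89a, 0.40 for Panx3 and 0.37 for Smpd3. The points share library and depth, and the values are given as a description.

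The levels were also compared by the Ihh count. Among chondrocytes with fewer than 5 Col10a1 UMIs, the 137 barcodes with 1 Ihh UMI lay just outside the class and the 45 with 2 UMIs just inside. Panx3 was at 22.4 CPM in the former and 61.1 CPM in the latter, Pth1r at 70.4 and 123 CPM, and Barx1 at 44.3 and 18.7 CPM. Over the bins of 3 to 5, 6 to 9 and 10 or more Ihh UMIs Panx3 went to 54.3, 125 and 289 CPM, Pth1r to 129, 144 and 341 CPM and Barx1 to 13.3, 18.3 and 1.55 CPM. Inside the class Pth1r was thus higher in each further bin, while Panx3 and Barx1 did not follow the order of the bins and for Barx1 the top bin, of 24 barcodes, stood apart. For Panx3 and Pth1r the bins at the threshold lay closer to each other than to the top bin. Comp stood at 89.3 CPM at 0 Ihh UMIs and at 154, 417, 443, 629.6 and 851 CPM in the further bins. Median depth was higher in the upper bins too, 17765 UMIs at 0 and 82448.5 at 10 or more. Each bin sums barcodes of all libraries, and the parts of depth and of library in the order of the bins were not tested.

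**Figure D3:**
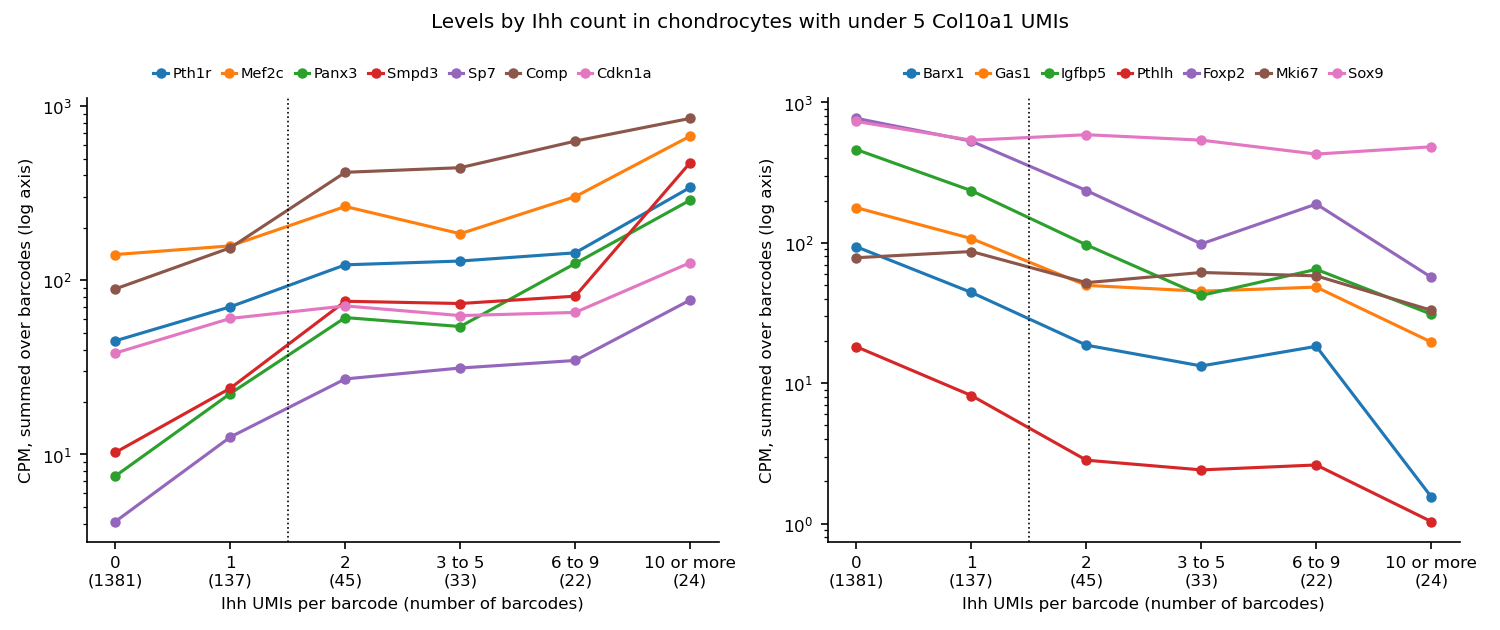
CPM on a log axis, from UMIs summed over all barcodes of a bin and all libraries, by Ihh UMIs per barcode (number of barcodes in brackets), in chondrocytes with fewer than 5 Col10a1 UMIs. The dotted line marks the minimum of 2 UMIs. Panx3 runs from 7.52 CPM at 0 Ihh UMIs to 289 CPM at 10 or more, Barx1 from 93.7 to 1.55 CPM, neither in strict order of the bins, and Sox9 stays between 429 and 732 CPM.

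The class was next compared with the later stage of the same programme, the Col10a1-high chondrocytes. Only S2 (8 barcodes) and S4 (58 barcodes) held enough of them, 30 of the 58 in S4 were of mixed sex, and the fit had 1 residual degree of freedom, so it relied on the spread shared across genes. The Col10a1-high sums held 95909 UMIs in S2 and 2316992 in S4, against 986452 and 3778275 in the Ihh-positive class. By edgeR 119 of 10509 genes (1.13%) passed, 32 higher and 87 lower in the Ihh-positive class. DESeq2 gave 29, the fit without barcodes of mixed sex 376, and thinning to 3000 UMIs 2 of 2150 tested. Of the genes named below Pth1r, Ifitm5, Cdkn1a, Comp, Epyc, C1qtnf3 and Hist1h2ap did not pass after thinning. Without the library as a block (no replicate block) 64 passed.

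Markers of late hypertrophy and of bone matrix separated the 2 stages. Spp1 was at 17.3 CPM in S2 and 6.06 CPM in S4 in the Ihh-positive class, and at 2758 and 422 CPM in the Col10a1-high class. Ibsp was at 1.02 and 6.85 CPM against 499 and 438 CPM, lower by 6.52 ± 0.44 on the log2 scale (edgeR adjusted p = 6.46e-46). Both genes were far apart in both libraries. Pth1r was at 198 and 196 CPM against 1311 and 715 CPM, so the receptor was 4.83-fold lower in the Ihh-positive class than in the Col10a1-high class. Ifitm5 was lower by 3.56, Alpl by 2.88, Cdkn1a by 2.08 and Comp by 1.06, where Alpl did not pass by DESeq2 (adjusted p = 0.322). Comp passed in 2 of 7 alternatives, with other size factors and without barcodes of mixed sex, and not by DESeq2, without the replicate block, without the filter on low counts, at 10 Col10a1 UMIs or after thinning. Of 14 mineralization genes 0 were higher and 4 lower.

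Panx3 did not pass between these stages, at 196 and 121 CPM against 245 and 296 CPM (edgeR adjusted p = 0.261), nor did Smpd3 (0.208) or Mef2c (0.773). Without barcodes of mixed sex Panx3 passed at -1.22 (edgeR adjusted p = 0.00203) and Mef2c at -0.88 (0.0186). Sp7 was at 44.7 and 46.6 CPM against 39.1 and 34.6 CPM and did not pass either (0.999). Genes that were higher in the Ihh-positive class included Epyc, a small proteoglycan, at 729 and 618 CPM against 29.3 and 228 CPM, and C1qtnf3, at 411 and 373 CPM against 19.6 and 93.1 CPM. Hist1h2ap, a replication-dependent histone, was at 730 and 491 CPM against 48.9 and 183 CPM. Epyc, C1qtnf3 and Hist1h2ap each had few UMIs in the Col10a1-high class of S2, whose 8 barcodes held 95909 UMIs in all. All 48 G2 and M phase genes tested had log2 differences above 0, with a median of 1.00 beside 0.09 for all genes, but 2 of them passed.

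The question of how p21 activation and Gli1 lineage relate to the size of the class was addressed by its share of the chondrocytes with fewer than 5 Col10a1 UMIs. The denominators leave out the Col10a1-high barcodes, which in S4 were 15 of Pan-Cart-p21MOE and 9 of control. The shares also leave out barcodes with no assigned condition, which were 23 of the 124 members and 392 of the 1518 other chondrocytes. In Pan-Cart-p21MOE cells of S1 to S4 the share was 5.19% (4 of 77), 13.6% (6 of 44), 6.91% (19 of 275) and 8.25% (32 of 388). In control cells it was 5.43% (5 of 92), 5.42% (9 of 166), 5.00% (4 of 80) and 20.95% (22 of 105). Control cells of S4 had the highest share, with an exact 95% binomial interval of 13.6% to 30.0% that overlapped that of Pan-Cart-p21MOE cells of S2 (5.17% to 27.4%) and lay above those of the other 6 groups, which ended between 10.04% and 12.8%. Its chondrocytes were also the deepest of the 8 groups by median, at 31384 UMIs. The mean share was 8.50% ± 3.65 in Pan-Cart-p21MOE and 9.20% ± 7.84 in control (SD, n = 4), and the difference of -0.71 percentage points did not pass (two-sided exact permutation test over 70 assignments, p = 0.943). Paired within libraries (replicate block), the exact sign-flip p was 0.875, with the share higher in Pan-Cart-p21MOE in 2 of 4 libraries. Without the control cells of S4 the difference turned to 3.21 percentage points (exact permutation p = 0.229), and without the Pan-Cart-p21MOE cells of S1 to 0.40 (exact permutation p = 1.00). Intervals cover counting error only. The direction rested on single libraries.

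By sorted fraction, the share was 5.63% ± 0.87 in tdT+ and 12.1% ± 6.84 in tdT- cells (SD, n = 4 library and condition groups each). The difference of -6.43 percentage points did not pass (two-sided exact permutation p = 0.0857). Paired between the fractions of a collection and condition (replicate block), the exact sign-flip p was 0.25, where 4 pairs allow no p below 0.125, and the tdT+ share was higher in 1 of 4 pairs. Leaving out the control cells of S2, the lowest tdT- share at 5.42%, gave -8.64 percentage points (exact permutation p = 0.0286). That p is the lowest the test allows with 1 group left out. Leaving out the control cells of S4 gave -3.47 (exact permutation p = 0.0857). Thinned to 10000 UMIs the difference was -4.02 (exact permutation p = 0.114). The Ihh level summed over chondrocytes with fewer than 5 Col10a1 UMIs was 63.9 CPM in control cells of S4 and between 10.5 and 27.4 CPM in the other 7 groups.

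**Figure D4:**
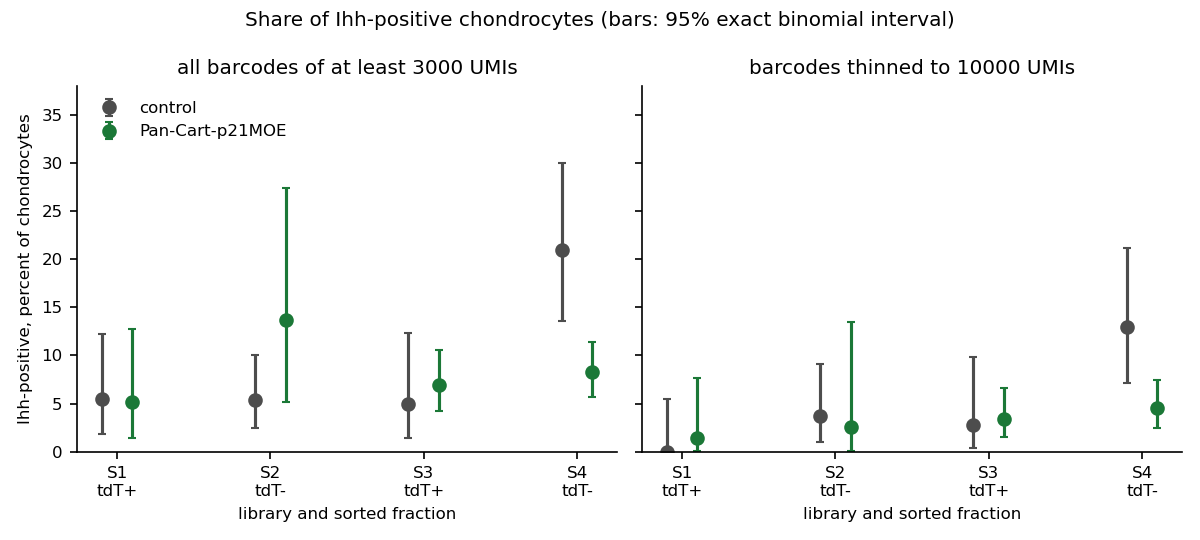
Ihh-positive barcodes as percent of chondrocytes with fewer than 5 Col10a1 UMIs in control (grey) and Pan-Cart-p21MOE (green) cells of each library, with exact 95% binomial intervals, for all barcodes from 3000 UMIs (left) and for barcodes thinned to 10000 UMIs (right). Control cells of S4 are at 20.95% in the left panel and 13.0% in the right panel, the highest value in each. Its interval overlaps 1 of the 7 others in the left panel, that of Pan-Cart-p21MOE cells of S2, and in the right panel all but those of control S1 and Pan-Cart-p21MOE S3.

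Expression within the class was compared between conditions over 6 groups with at least 5 barcodes, control cells of S1, S2 and S4 and Pan-Cart-p21MOE cells of S2, S3 and S4, with sorted fraction as a term. The transgene sequence WPRE, added to the reference by the authors, was checked first. Both the tdTomato reporter and the p21 allele carry this sequence, and their reads cannot be told apart in the tdT+ groups (control S1 and Pan-Cart-p21MOE S3). It was at 1585, 1454 and 1367 CPM in Pan-Cart-p21MOE cells and at 524, 35.2 and 50.4 CPM in control cells. The groups did not overlap, and the high control value was that of S1, the only tdT+ control group. Cdkn1a was at 89.1, 144 and 78.1 CPM in Pan-Cart-p21MOE and at 13.0, 134 and 73.2 CPM in control cells, and these overlapped. Its log2 difference of 0.53 ± 0.55 (edgeR adjusted p = 0.995) was below 0 without control S1 (-0.27), without Pan-Cart-p21MOE S3 (-0.27) and in the replicate block (-0.21).

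No gene passed between conditions by edgeR, 0 of 8540 (0.0%), with 464 genes at an unadjusted p under 0.05. DESeq2 gave 6 genes, the paired fit with library as replicate block 64, in which only S2 and S4 hold both conditions, and leaving out single groups 0 to 9. The lowest p-values were those of Itpr2, Hist1h2ap and Hspa1a among genes with lower values in Pan-Cart-p21MOE and of WPRE, Lama2 and Agbl4 among those with higher values. Itpr2, a calcium channel of the endoplasmic reticulum, was at 65.3, 59.0 and 70.4 CPM in Pan-Cart-p21MOE and at 329, 204 and 190 CPM in control cells. These ranges did not overlap (log2 difference -1.84 ± 0.25, edgeR adjusted p = 0.201). Hist1h2ap was at 50.5, 158 and 96.8 CPM against 1934, 232 and 1048 CPM, and over 21 histone genes 18 lay below 0, with a median log2 difference of -2.84 beside 0.00 for all genes. None of them passed. Hspa1a, a stress-induced chaperone, was at 74.2, 7.12 and 18.2 CPM against 921, 459 and 347 CPM. Of 23 dissociation stress genes, early response and heat shock genes that tissue digestion can induce, 20 lay below 0 with a median log2 difference of -0.44 and none passed, and the part of dissociation in these values was not tested. In other chondrocytes, over 8 groups, 29 of 29 histone genes lay below 0 with a median of -0.94 and 19 of 23 dissociation stress genes with a median of -0.25. None of these passed there, where 5 of 12208 genes did by edgeR (0.041%). The calls in the class depended on the fit. The replicate block fit had 1 residual degree of freedom. It took the difference from S2 and S4 only and relied on the spread shared across genes. Itpr2, Hist1h2ap and Hspa1a all passed in the replicate block (edgeR adjusted p = 0.000221, 1.39e-27 and 1.39e-27) and with the fractions of a pool summed (0.0244, 0.00465 and 0.0384), as did WPRE, Lama2 and Agbl4, and all 6 passed without the filter on low counts.

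Markers of the class itself did not differ detectably between conditions. Pth1r was at 169, 230 and 173 CPM in Pan-Cart-p21MOE and at 68.4, 183 and 238 CPM in control cells (edgeR adjusted p = 0.997). Mef2c was at 472, 492 and 325 CPM against 182, 424 and 337 CPM, and Panx3 at 181, 184 and 116 CPM against 6.51, 195 and 155 CPM. In all 3 the control group of S1, with 5 barcodes, was the lowest, and Pth1r and Panx3 had log2 differences below 0 without it.

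**Figure D5:**
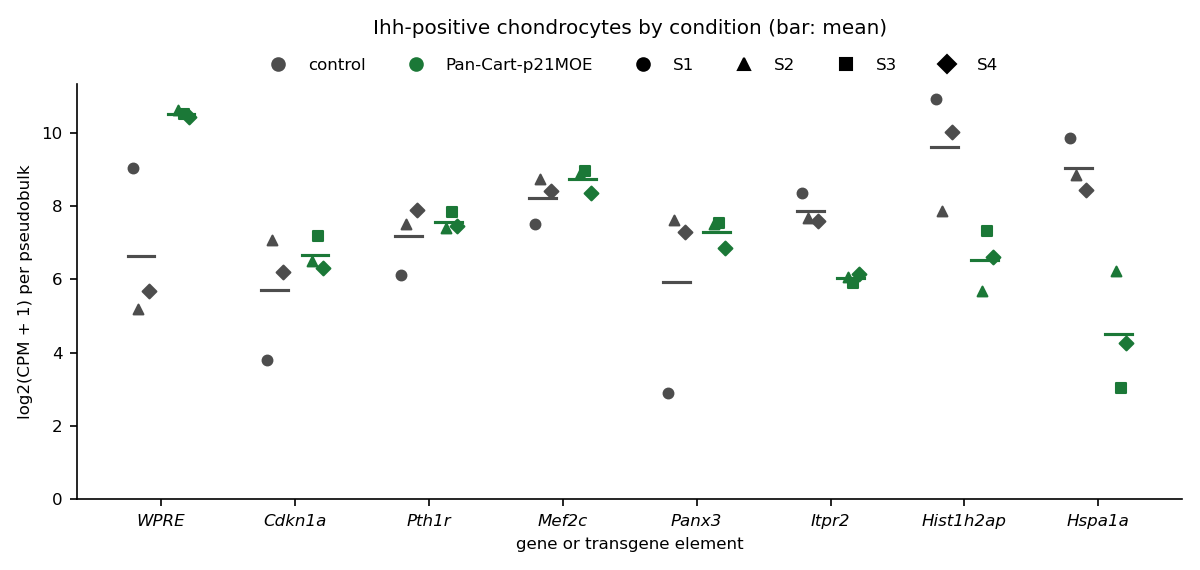
Levels in Ihh-positive chondrocytes as log2(CPM + 1), on the vertical axis, for 3 control (grey) and 3 Pan-Cart-p21MOE (green) groups, with 1 symbol per library and a bar at the mean. WPRE is above every control group in Pan-Cart-p21MOE, Itpr2, Hist1h2ap and Hspa1a are below, and Cdkn1a, Pth1r, Mef2c and Panx3 overlap, while no gene passed the adjusted edgeR test.

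Between tdT+ and tdT- cells of the class, over the same 6 groups with condition as a term, 0 of 8540 genes passed by edgeR (0.0%), with 364 at an unadjusted p under 0.05. DESeq2 gave 4 genes, the paired fit with pool and condition as replicate block 3, and leaving out single groups 0 to 17, the latter without Pan-Cart-p21MOE S3. Bnc2, a zinc finger protein, was at 169 and 126 CPM in the tdT+ groups (S1 control and S3 Pan-Cart-p21MOE) and between 35.8 and 47.5 CPM in the 4 tdT- groups. The fractions did not overlap for Bnc2 (log2 difference 1.86 ± 0.25, edgeR adjusted p = 0.224), nor for Col24a1, a fibrillar collagen, at 58.6 and 43.7 CPM against 3.30 to 16.4 CPM. Both genes passed in 2 of 13 alternatives, by DESeq2 (adjusted p = 0.00304 and 0.0444) and with no filter on low counts (edgeR adjusted p = 2.61e-06 and 1.79e-05). Gli1, whose locus drives the CreER, was at 16.3 and 11.2 CPM in the tdT+ groups and between 5.94 and 18.2 CPM in the tdT- groups, and its log2 difference of 0.27 fell below 0 without control S1 (-0.33).

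Whether the difference between conditions itself differed between Ihh-positive and other chondrocytes was tested as an interaction over the same 6 groups. By edgeR 0 of 11763 genes passed (0.0%), 329 had an unadjusted p under 0.05 and DESeq2 gave 0. Col28a1 had the lowest p, with an interaction of 5.44 ± 0.86 on the log2 scale (edgeR adjusted p = 0.445). With no filter on low counts Col28a1 passed (5.45, edgeR adjusted p = 2.42e-05), as did 46 genes in all. With groups of at least 10 cells its interaction was 5.22, in a fit whose only control group was that of S4. Its values were low, at most 14.9 CPM in the members and at most 22.2 CPM in other chondrocytes.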

How the data were processed

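Hindlimb cells were sequenced as 4 10x 3′ libraries (v3.1 chemistry). The deposited matrices hold raw UMI counts per gene and barcode, made by the authors with Cell Ranger 7.2.0 on GRCm38 with transgene sequences added; 32158 of 32288 features matched the GENCODE vM21 annotation. Members and gene lists were chosen with earlier results of these data known.

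Barcodes were filtered and classed as given above. UMIs were summed per library and class (and condition, at least 5 barcodes), filtered with filterByExpr, normalised by TMM and tested with edgeR 4.0.16 (quasi-likelihood, Benjamini-Hochberg, threshold 0.05) in R 4.3.3. The 9 rule genes were left out of tests between classes. Condition was assigned per barcode from UMIs of Xist and of the Y-linked genes Uty, Kdm5d, Eif2s3y and Ddx3y (at least 2 UMIs, 80% on one side). Class comparisons had library as a block. Shares were compared by exact permutation with SciPy 1.17.1, with exact 95% binomial intervals. Alternatives included DESeq2 1.42.0, RLE factors, no filter, other Ihh minima, thinning, and leaving out single groups. The depth range, with and without barcodes of mixed sex, and the Col10a1-high comparison without such barcodes were chosen after seeing the data. Genes were named by list membership or as the 12 largest changes each way with at least 20 CPM and 1 direction in all libraries, between conditions and fractions as the 3 lowest p each way. Some genes that this rule or the lists hold are not reported here. Pairing by library came from the pools: deviations of the classes within a library correlated at 0.08 to 0.18 over genes, and those of the conditions at -0.04 and -0.03. The scripts were tested on simulated data.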

Additional observations from a re-analysis of the deposited data

Results flagged for a closer look

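Among 204 sets of 4 library values, 15 held a library far from the other 3, where chance flags about 1 in 20 sets. The clearest concerned the size of the class: in control cells the Ihh-positive share of chondrocytes was 20.95% in S4, against 5.00% to 5.43% in the other libraries.

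S1, with 10 members, stood apart within the Ihh-positive class for Sp7, at 18.28 CPM against 46.2 to 51.3, for Gli2, at 35.03 CPM against 18.57 to 20.99, and for Sox6, at 903.2 CPM against 630 to 659. S2 stood apart for Pltp at 71.36 CPM, Bmpr1b at 155.3 CPM, Fgfr1 at 65.06 CPM and Kif11 at 14.69 CPM.

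In other chondrocytes S1 stood apart for Tgm2 at 5.075 CPM, Spock3 at 34.1 CPM, Zfp521 at 208.5 CPM and Nog at 55.19 CPM, S2 for Wnt4 at 42.45 CPM and Matn3 at 155.7 CPM, and S4 for Ibsp at 4.921 CPM.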

How the results depend on the processing

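The count of genes that differed between Ihh-positive and other chondrocytes was 2977. Between barcodes of 30000 to 100000 UMIs it was 1773, and 1618 in that range without barcodes of mixed sex or shared sequence. After thinning to 3000 UMIs it was 518 of 7382 tested. It ran from 1364 (without S4) to 3193 (without S1) when single libraries were left out, and stood at 1546 without S3. Against Col10a1-high chondrocytes the count of 119 was 29 by DESeq2, 64 without a replicate block, 2 after thinning and 376 without barcodes of mixed sex. Between conditions the count of 0 was 6 by DESeq2 and 105 with no filter on low counts. It was 64 in the paired fit with a replicate block, which had 1 residual degree of freedom. With the fractions of a pool summed it was 27, and without single groups 0 to 9. Between fractions it was 4 by DESeq2, 81 with no filter, 3 with a replicate block and 0 to 17 without single groups. For the interaction it was 46 with no filter, 77 with groups of at least 10 cells and 0 to 1 without single groups. The causes were not tested.

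The difference in share between conditions ran from -2.42 to 3.21 percentage points without single groups, and that between fractions from -8.64 to -3.47. Values that changed sign were as follows. For Ptch1 between classes the log2 difference was -0.29 thinned, -0.10 in the depth range and -0.086 in that range without mixed or shared barcodes, and for Spp1 it ran from -0.35 without S3 to 1.27 with other libraries left out. Between conditions, the replicate block gave -0.21 for Cdkn1a, -0.32 for Pth1r and -0.29 for Panx3, and fractions summed gave -0.12 for Pth1r and -0.0745 for Panx3. Without single groups the range was -0.27 to 1.03 for Cdkn1a, -0.31 to 0.59 for Pth1r and -0.28 to 1.28 for Panx3. Between fractions Pth1r ran from -1.64 to 0.42 without single groups and Gli1 from -0.33 to 0.17, with Gli1 at -0.0366 in the replicate block and -0.0647 over whole libraries.

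Over 1977 alternative values for 139 named gene results, 1778 kept direction and side of the threshold, 118 lost a call, 62 gained one and 19 changed sign. With no residual degrees of freedom, no test was made without single libraries against Col10a1-high chondrocytes or with groups of at least 10 cells between conditions or fractions within the class. Members per group (5 to 32 barcodes) limit the comparisons of conditions and fractions, and in S1 the 10 members limit each value.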
